A study of Mus musculus with 6 samples.

Results

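The mitochondrial ribosomal protein genes were followed in mouse Eµ-Myc lymphoma cells with and without the microRNA cluster miR-17~92. Their members were chosen by gene symbol alone, as every row of the deposited count table whose NCBI gene number belongs to a protein-coding Mrpl or Mrps gene. This gave 78 genes of 24885 rows, 49 of the large subunit (Mrpl) and 29 of the small subunit (Mrps). The family was put forward with its difference between the cell groups already known, so the members' differences and calls, taken from a fit over the whole table, are given below as a description and not as evidence, with no p-value.

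The mitochondrial ribosome reads the few messenger RNAs that the mitochondrial genome encodes, all of which code for subunits of the oxidative phosphorylation complexes. Its ribosomal RNAs come from mitochondrial DNA, whereas all its proteins are encoded in the nucleus, made in the cytosol and imported. Some of these proteins have counterparts in bacterial ribosomes and others are found only in mitochondria. The small subunit binds the messenger RNA and decodes it, and the large subunit forms the peptide bond and releases the chain through an exit tunnel at the inner membrane. In lymphoma driven by Myc, genes of mitochondrial translation are known as part of the growth program that Myc promotes.

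The study compared 2 groups of 3 libraries. All cells carried the Eµ-Myc transgene, whose enhancer drives Myc in the B lineage, the tamoxifen-activated recombinase Cre-ERT2 and floxed alleles of miR-17~92 (fl/fl). The fl libraries came from cells with the floxed, undeleted cluster. The del libraries came from cells exposed to 250 nM 4-hydroxytamoxifen (4-OHT) for 4 days and then subcloned as cells lacking the cluster. Both groups had grown for 48 hours on irradiated Ink4a-null fibroblast feeder cells before RNA collection. The labels do not tell whether the 3 libraries of a group were separate cultures or clones, so the spread between them may be technical. Since the del cells alone were treated and subcloned, the deletion, the treatment and the subcloning cannot be told apart.

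Library totals ranged from 6554423 to 9580630 counts in fl and from 2121796 to 3738720 in del, so depth went with the group. The transcript that hosts the cluster, Mir17hg, was at 258.9 ± 5.997 CPM (read counts scaled to library size; mean ± SD, n = 3) in fl and 174.8 ± 28.0 in del. Reads from the end of that transcript lie outside the deleted cluster and do not check the deletion. Markers of the labelled cell type were nearly absent from fl: the 8 B cell markers summed to between 13.64 and 18.58 CPM in the fl libraries and to between 546.2 and 699.3 in the del libraries. The early B cell gene Igll1 was at 0 in all fl libraries and at only 0.26, 0.47 and 0.81 CPM in del. Igll1, Vpreb1 and Ms4a1 were too low in both groups to be tested. The 8 myeloid markers summed to 403.3 to 450.4 CPM in fl and 1851 to 1940 in del, with Mpo at 0 in both. Most of the fl sum came from Fcer1g (mean 390.6 CPM in fl, 599.4 in del). From fl to del, mean Lyz2 went from 0.37 to 453.9 CPM and Itgam from 3.07 to 340.6. Csf1r went from 6.88 to 128.0 CPM and Tyrobp from 18.2 to 363.5. Summed fibroblast markers (12 genes) were at 2.06 to 9.24 CPM in fl and 17.1 to 36.5 in del. The 6 T and NK cell markers summed to at most 1.68 CPM in any library. Of the genes tested among these lists, 5 of 5 B cell, 5 of 6 myeloid and 2 of 3 fibroblast markers rose. Over all genes tested, 32.5% were called higher in del. The myeloid gene Cd14, low in both groups, fell from a mean of 3.93 CPM in fl to 1.95 in del. The call of Cd14 (log2 fold change -1.05) was lost without del replicate 1 (-0.70) or del replicate 2 (-1.17). The part of these markers in the results below was not tested. In libraries thinned to the smallest total, 59 of the 78 members described below were called lower in del and none higher. Their median log2 fold change was -0.93. At full depth 68 were called lower and none higher, with a median of -0.92. The thinned fit called 4664 of 9295 genes tested in either direction, against 6676 of 10260 at full depth. At full depth 32.6% of all genes tested were called lower. In such bulk samples, fewer cells of a type and less RNA per cell cannot be told apart.

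Nearly the whole family was lower in the cells without miR-17~92. All 78 members had counts in every library, from 24 to 4270, and all passed the count filter. In edgeR's quasi-likelihood fit over 10260 genes, with a Benjamini-Hochberg adjusted threshold of 0.05, 68 members were called lower in del and 10 were not called. No member was called higher, by edgeR or by DESeq2, and none was higher at an unadjusted p under 0.05. The same fit called 65.1% of all genes tested, 32.6% lower and 32.5% higher. The median log2 fold change (del minus fl) of the members was -0.92, with quartiles at -1.16 and -0.68, against -0.003 over all genes tested. At least a 2-fold reduction was seen in 31 members, and the fold change lay below 0 in 76. In 68 members all 3 del values lay below all 3 fl values, an order that 35.7% of all tested genes showed.

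**Figure D1:**
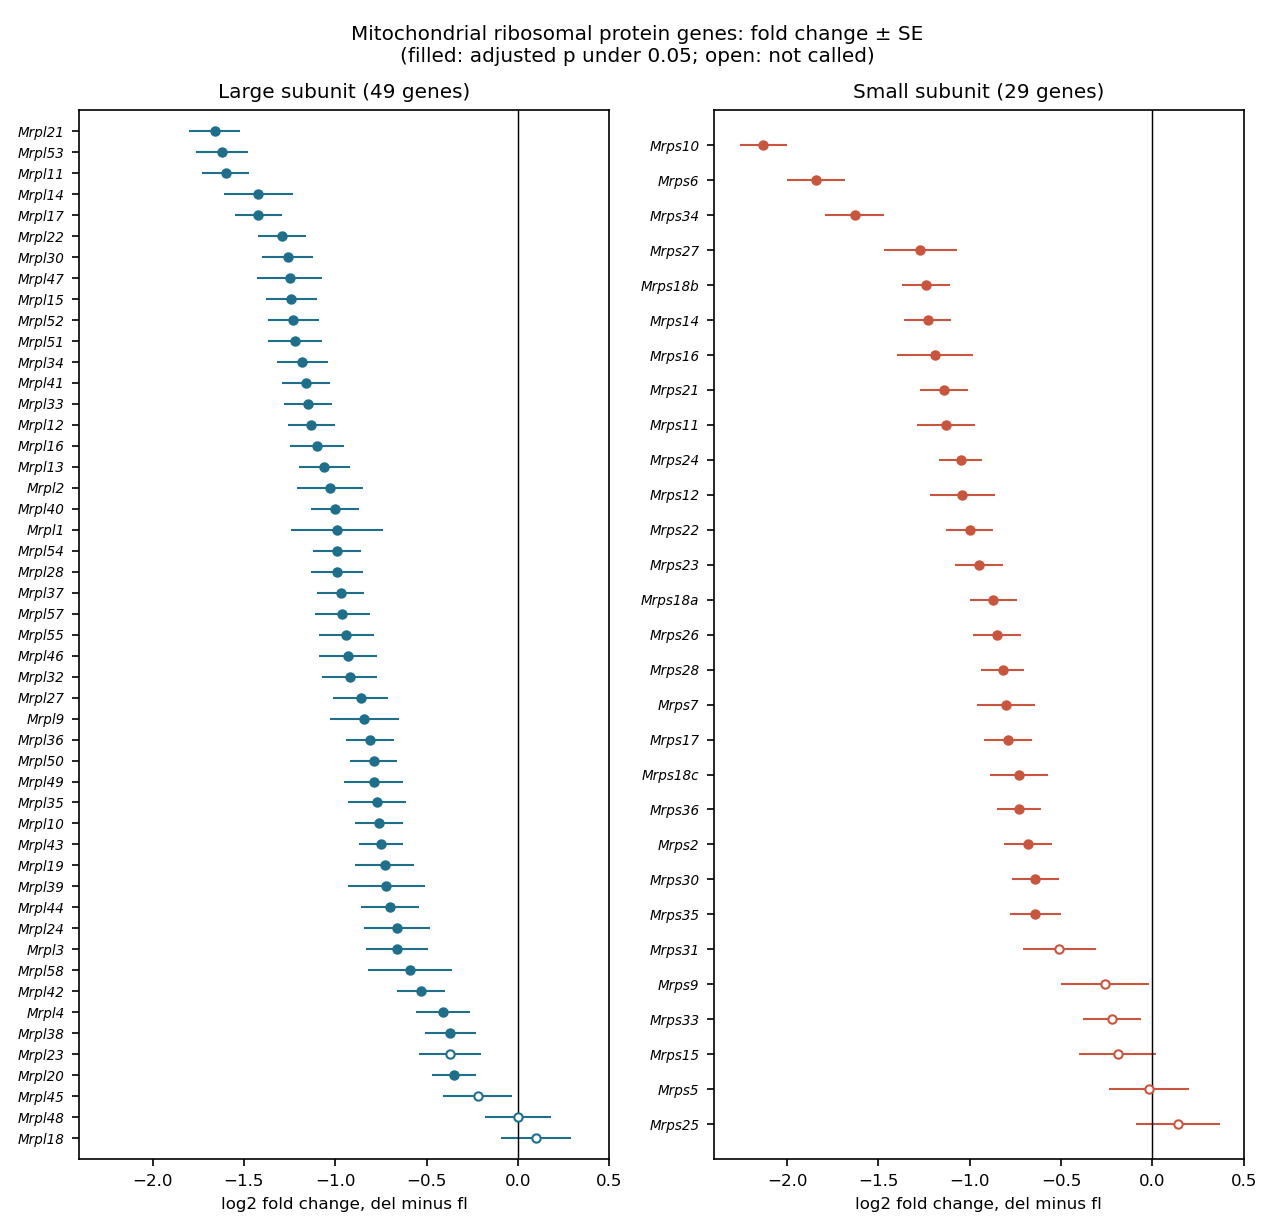
Log2 fold change (del minus fl, horizontal axis) of each of the 49 large and 29 small subunit genes, with bars of ± 1 SE. Filled points were called by edgeR and open points were not. The 68 filled points all lie left of 0, and the 10 open points lie toward the lower end of each panel.

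The family as a sum took 10970, 10070 and 10210 CPM in fl. In del the sums were 6155, 6023 and 5409 CPM. The groups did not overlap, and the del mean (5862 ± 398.1, n = 3) was 0.563 of the fl mean (10420 ± 484.3, n = 3). Within groups the members varied little: their median coefficient of variation was 6.07% in fl and 10.3% in the shallower del libraries. The highest library exceeded the lowest by more than 1.5 times in 3 members within fl and in 12 members within del.

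Among the large subunit genes, 45 of 49 were lower in del and 4 were not called. Their log2 fold changes ran from -1.66 to 0.10 with a median of -0.94. Mrpl21, a large subunit protein with a bacterial counterpart, showed the strongest reduction. It was at 89.4, 97.8 and 100.4 CPM in fl and at 33.7, 29.8 and 27.6 CPM in del, a log2 fold change of -1.66 ± 0.14 (SE). Next was Mrpl53, one of the proteins particular to mitochondria, with 216.8, 198.1 and 175.4 CPM in fl and 66.4, 67.3 and 59.2 in del (log2 fold change -1.62 ± 0.14). For both genes every del library lay well below every fl library. Mrpl11 helps form the base of the stalk to which translation factors bind. Its values were 133.6, 139.5 and 131.1 CPM in fl and 43.7, 46.9 and 43.2 in del (-1.60 ± 0.13). Mrpl14, at the interface between the subunits, had values of 117.5, 86.5 and 83.1 in fl against 33.7, 42.6 and 31.6 in del (-1.42 ± 0.19). The fl values of Mrpl14 were spread more widely, with replicate 1 high, but the groups did not overlap. Mrpl17 (-1.42 ± 0.13) and Mrpl22 (-1.29 ± 0.13), a protein that lines the exit tunnel, completed the 6 lowest.

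At the other end of the large subunit stood Mrpl18, a protein of the central protuberance. It was at 453.9, 348.2 and 372.0 CPM in fl and at 464.8, 473.7 and 318.4 in del, so the groups overlapped fully. Mrpl48, also of the central protuberance, had 58.7, 61.4 and 47.4 CPM in fl and 54.5, 69.6 and 44.6 in del. Mrpl45, which anchors the ribosome at the inner membrane near the tunnel exit, had 136.8, 96.0 and 83.4 CPM in fl and 90.6, 94.3 and 86.5 in del. The mean of Mrpl45 in fl was raised by replicate 1, and the other 2 fl libraries lay within or near the range of del. The highest called value was that of Mrpl20 (-0.35 ± 0.12), an RNA-binding protein of the large subunit, at 100.9, 103.1 and 107.8 CPM in fl and 82.2, 79.6 and 82.2 in del. This small change rested on narrow spreads in both groups. Its call was lost without fl replicate 2 (-0.36), fl replicate 3 (-0.32), del replicate 1 (-0.36) or del replicate 2 (-0.34), in libraries thinned to equal depth (-0.22) and with a replicate block (-0.35).

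The large subunit genes that took the most counts in fl were Mrpl30, Mrpl18 and Mrpl52. Mrpl30 was at 489.6, 393.4 and 427.2 CPM in fl and at 185.1, 184.7 and 177.6 in del (-1.26 ± 0.14). Mrpl52, one of the proteins with no bacterial counterpart, was at 320.1, 381.4 and 302.2 CPM in fl and at 144.8, 139.3 and 143.3 in del (-1.23 ± 0.14). Among the 3 most counted genes, Mrpl18 thus stood apart from the other 2, which were at 0.418 (Mrpl30) and 0.426 (Mrpl52) of their fl mean in del. Some functional neighbours, picked by their role after the values were seen, also differed among themselves. In the stalk, where elongation factors are recruited, Mrpl12 (-1.13 ± 0.13) and Mrpl10 (-0.76 ± 0.13) were both lower, as was Mrpl11. Around the exit tunnel, Mrpl24 (-0.66 ± 0.18) was lower beside Mrpl22, while Mrpl23 (-0.37 ± 0.17) was not called. It was called lower without del replicate 2 (-0.51), with upper-quartile scaling (-0.49) and with no count filter (-0.42). Mrpl58, a peptidyl-tRNA hydrolase built into the large subunit, was the only called member whose groups overlapped, with 83.1, 55.5 and 58.9 CPM in fl and 57.4, 38.8 and 34.1 in del. Its log2 fold change of -0.59 ± 0.23 was no longer called without fl replicate 1 (-0.40), del replicate 2 (-0.53) or del replicate 3 (-0.43).

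Among the small subunit genes, 23 of 29 were lower in del and 6 were not called. The median log2 fold change was -0.85, and the range, from -2.13 to 0.14, was wider than in the large subunit. Mrps10, a protein of the small subunit head, was lowest of the whole family. It was at 255.7, 221.5 and 242.1 CPM in fl and at 53.5, 56.4 and 54.9 in del, 0.229 of the fl mean and a log2 fold change of -2.13 ± 0.13. Mrps6, which has a bacterial counterpart in the platform, had 61.7, 63.8 and 63.1 CPM in fl and 19.2, 19.9 and 14.1 in del (-1.84 ± 0.16). Mrps34, particular to mitochondria, had 59.2, 62.4 and 58.4 CPM in fl and 23.2, 18 and 16.8 in del (-1.63 ± 0.16). These 3 genes stood below all other small subunit members, and none had overlapping groups. Mrps27, a pentatricopeptide repeat protein, was at 39.7, 46.4 and 42.2 CPM in fl and 20.0, 11.4 and 20.3 in del (-1.27 ± 0.20), with del replicate 2 low. Mrps18b (-1.24 ± 0.13) and Mrps14 (-1.23 ± 0.13), another protein of the head, were close behind. Annotated exons of Mrps6, Mrps34 and Mrpl53 overlap another gene on the same strand, so their reads could be divided between genes, whereas Mrps10 overlaps none. Those of Mrpl21 and Mrpl14, and of Mrpl18, Mrpl48 and Mrps25 at the high end, overlap a protein-coding gene on the opposite strand. The strand setting of the counting is not known, so the values of these genes may include reads of the neighbour.

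At the high end of the small subunit was Mrps25, a mitochondria-specific protein, at 110.6, 116.7 and 90.02 CPM in fl and at 153.8, 118.0 and 78.1 in del. The del libraries of Mrps25 lay on both sides of fl. Mrps5, which lies where messenger RNA enters the ribosome, had 314.3, 185.2 and 188.1 CPM in fl and 233.1, 251.1 and 193.8 in del. Mrps15, an early RNA-binding protein in assembly, had 132.9, 129.5 and 128.9 in fl and 107.2, 79.6 and 154.1 in del. Its fl libraries were nearly equal while the del libraries differed by 1.94 times. Leaving out del replicate 3 moved the log2 fold change of Mrps15 from -0.19 to -0.47, and it was then called lower. Mrps33 had 247.3, 234.2 and 235.2 CPM in fl and 241.2, 205.6 and 168.1 in del (-0.22 ± 0.16). Mrps31 (-0.51 ± 0.20) was not called although its del values of 30.6, 18.5 and 34.6 CPM were all below its fl values of 41.5, 36.9 and 43.0. It was called lower without del replicate 3 (-0.68), with a replicate block (-0.55), with upper-quartile scaling (-0.64) and with no count filter (-0.55).

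The small subunit genes with the most counts were Mrps21, Mrps9 and Mrps14. Mrps21, whose bacterial counterpart sits near the messenger RNA, was at 407.4, 392.8 and 411.1 CPM in fl and at 195.7, 170.1 and 184.6 in del (-1.14 ± 0.13). Mrps14 was at 303.7, 275.9 and 284.4 CPM in fl and at 126.1, 121.3 and 121.4 in del. Mrps9, whose tail reaches toward the transfer RNA, was at 342.6, 230.3 and 311.9 CPM in fl and at 252.8, 317.9 and 171.1 in del. Its groups overlapped, with wide spreads in both, and it was not called (-0.26 ± 0.24).

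**Figure D2:**
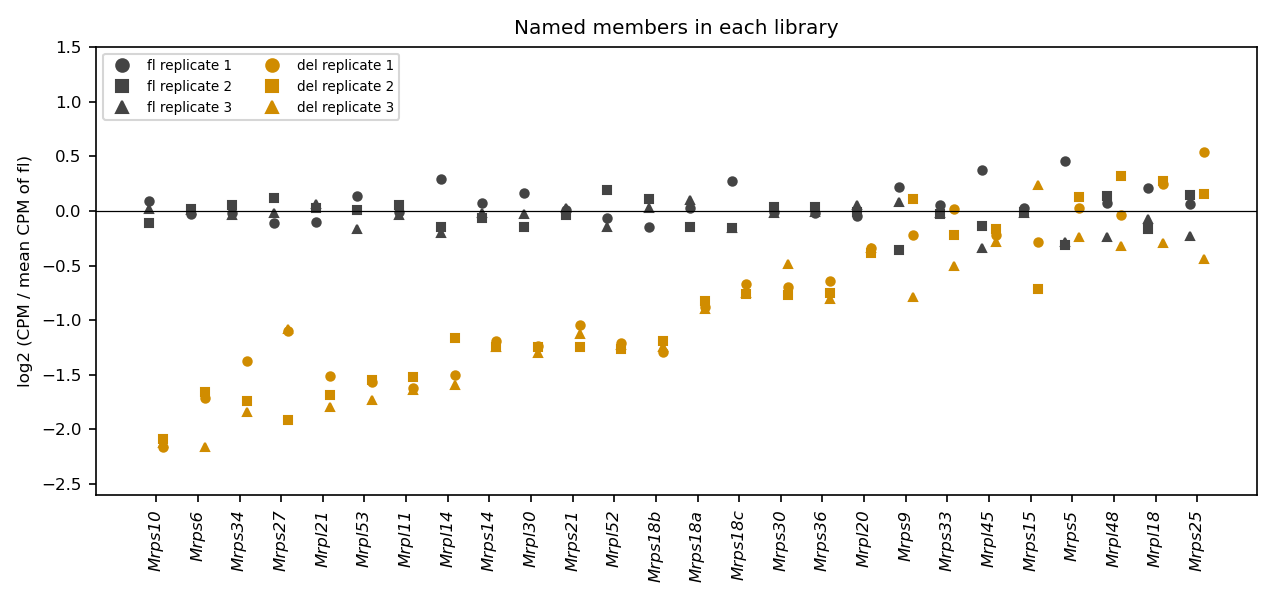
CPM of 26 members in each of the 6 libraries, as log2 of the ratio to the fl mean (vertical axis). Lower fold changes lie broadly to the left, but the order is not strict. Symbols give the replicate number, grey for fl and amber for del. From Mrps10 to Mrpl20 every del point lies below every fl point, and from Mrps9 to Mrps25 the groups overlap.

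The Mrps18 paralogs occupy different places in the ribosome, and all 3 were lower. Mrps18b, which took on a place of its own in the small subunit, fell most (-1.24 ± 0.13). Mrps18a, which despite its symbol is found in the large subunit, had 78.0, 69.2 and 82.1 CPM in fl and 41.6, 43.1 and 41.1 in del (-0.87 ± 0.13). Mrps18c, the paralog that keeps the place of the bacterial protein, had 157.3, 116.4 and 116.4 CPM in fl and 81.6, 76.7 and 77.0 in del (-0.73 ± 0.16). The differences among the paralogs were not tested. Mrps30, also a large subunit protein by place, had 97.8, 100.9 and 97.3 CPM in fl and 60.8, 57.8 and 70.3 in del (-0.64 ± 0.13). Mrps36, a gene with a ribosomal symbol whose product belongs to the oxoglutarate dehydrogenase complex, had 86.6, 89.97 and 87.1 CPM in fl and 56.4, 52.1 and 50.3 in del (-0.73 ± 0.12). All of these genes had groups that did not overlap.

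The medians of the large and the small subunit lay close together. The small subunit median was above the large subunit median by 0.09 log2 units, whereas the quartiles spanned -1.14 to -0.64 in the small and -1.16 to -0.72 in the large subunit. Summed CPM in del was 0.545 of fl for the large and 0.593 for the small subunit. Small subunit genes gave 36.9%, 35.98% and 37.2% of the members' counts in fl and 38.8%, 38.8% and 38.4% in del. The del shares all lay above the fl shares, by 1.97 percentage points on the means. The exact binomial 95% intervals, which cover counting error only, reached at most 37.6% in any fl library and fell to no lower than 37.7% in del replicate 3. Those shares depend on the genes with many counts. Without the most counted gene of each subunit over all 6 libraries, Mrpl18 and Mrps21, the gap became 4.06 points. In fl alone Mrpl30 had more counts than Mrpl18. Leaving out Mrpl18 took away a large subunit gene that was not called lower in del, whereas Mrps21 was called lower. With Mrps18a and Mrps30 counted in the large subunit and Mrps36 left out, the medians were -0.93 for the large and -0.90 for the small subunit. The gap between the subunit medians ranged from 0.02 to 0.16 when single libraries were left out, being 0.02 without fl replicate 1 or without del replicate 3 and 0.16 without del replicate 1. It was 0.15 in libraries thinned to the smallest total.

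**Figure D3:**
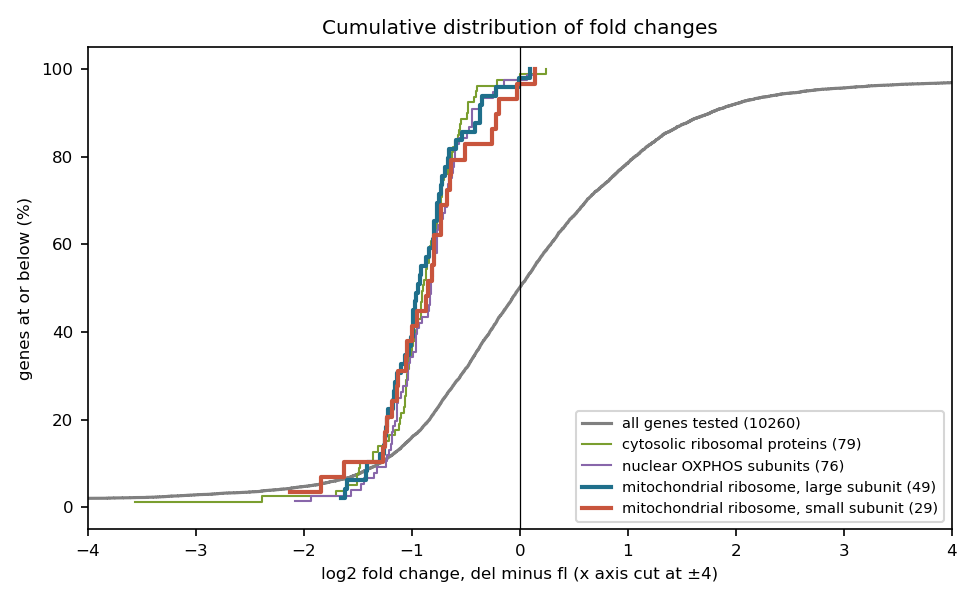
Cumulative share of genes (vertical axis, percent) at or below each log2 fold change (horizontal axis, del minus fl) for all genes tested, both mitochondrial ribosomal subunits, cytosolic ribosomal proteins and nuclear subunits of oxidative phosphorylation. The curves of the large (median -0.94) and small subunit (median -0.85) run close together and to the left of the curve of all genes (median -0.003).

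The origin of the protein was also compared as a description. The class was set by the number in the gene symbol, apart from a few exceptions. It can misplace single genes and is approximate. The 42 members classed as having a bacterial counterpart had a median log2 fold change of -0.99, and 37 of them were lower. The 36 members classed as mitochondria-specific, with Mrps36 among them, had a median of -0.86, with 31 lower. In each class 5 members were not called, so both classes were represented at either end of the family.

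The 10 members that were not called were the 4 large subunit genes Mrpl18, Mrpl48, Mrpl45 and Mrpl23 and the 6 small subunit genes Mrps25, Mrps5, Mrps15, Mrps33, Mrps9 and Mrps31. Their median SE was 0.196, against 0.141 for the called members, and their median log2 fold change was -0.21 against -0.98. Both quantities enter the call itself, so these values only describe the 10 genes.

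Other protein families that the cell makes in many copies were set beside the members. Of 79 cytosolic ribosomal protein genes tested, 71 were called lower and none higher, with a median of -0.90. Of 76 tested nuclear genes for oxidative phosphorylation subunits, whose complexes contain the proteins that the mitochondrial ribosome makes, 71 were lower and none higher, with a median of -0.82. These values share the same 6 libraries with those of the mitochondrial ribosome, whose median was -0.92, and the differences between the families were not tested.

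Fold change was related to transcript length over the whole table, and the mitochondrial ribosomal genes have short transcripts. The median of their longest annotated transcripts was 1866 nucleotides against 3399 for all tested genes. Spearman's rank correlation between this length and the log2 fold change was 0.407 over 10010 genes and 0.189 over the 78 members, each across genes that share the same libraries. With the genes in 5 equal bins by length, in the bin of the shortest, up to 1994 nucleotides, the median log2 fold change was -0.67 for all genes and -0.99 for its 41 members. In the middle bin it was -0.05 for all genes and -0.99 for 12 members. In the bin of the longest, all genes had a median of 0.80 while its 3 members (Mrpl13, Mrpl17 and Mrps25) had a median of -1.06. After a smooth trend on length and GC content over all genes was removed, the members' median was -0.52, against -0.12 over all genes. The small and large subunit medians were then -0.52 and -0.51.

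**Figure D4:**
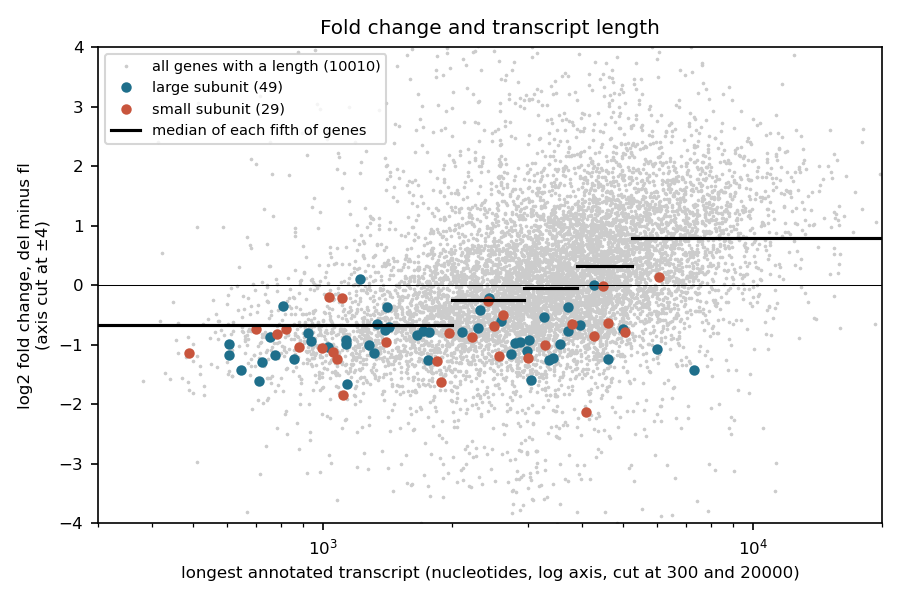
Log2 fold change (vertical axis, del minus fl, cut at ±4) against the length of the longest annotated transcript (horizontal log axis, nucleotides) for all tested genes in grey and for the members in colour. Black horizontal segments mark the medians of 5 equal bins of all genes, which go from -0.67 in the shortest to 0.80 in the longest. Most members lie below the segment of their bin.

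Genes that build and serve the mitochondrial ribosome were taken from 6 lists holding 107 genes, of which 104 were tested. Of these 49 were lower and 8 higher in del by the same edgeR test, beside 32.6% lower and 32.5% higher over all genes tested. Differences between the lists were not tested. The lists were set with earlier results of these data known, and up to 4 genes per list were named for their smallest adjusted p. The adjusted p-values given for them are therefore a description and not separate evidence for the family. Of the ribosomal proteins whose symbols follow another pattern, 4 of 5 were lower, with a median of -0.94. Chchd1, a small subunit protein, was at 304.9, 268.7 and 285.5 CPM in fl and 97.4, 115.6 and 87.6 in del (log2 fold change -1.52 ± 0.15, edgeR adjusted p = 2.92e-05). Gadd45gip1 (-1.25 ± 0.20, edgeR adjusted p = 0.000518) encodes a large subunit protein. Ptcd3 (-0.94 ± 0.12, edgeR adjusted p = 0.000151) and Dap3 (-0.82 ± 0.13, edgeR adjusted p = 0.000383) encode small subunit proteins. Aurkaip1, also of the small subunit, did not pass, at 91.3 ± 3.802 CPM in fl and 79.1 ± 2.15 in del (n = 3 each, edgeR adjusted p = 0.161). With upper-quartile scaling it was called lower (-0.34).

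Of 26 tested assembly genes, 18 were lower and none higher, beside 32.6% and 32.5% of all genes tested. The median was -0.70. Malsu1, which keeps an immature large subunit from joining the small one, was at 98.3, 96.6 and 96.9 CPM in fl and 27.4, 29.4 and 28.4 in del (-1.78 ± 0.13, edgeR adjusted p = 4.32e-06). Among the tested assembly genes Malsu1 had both the lowest fold change and the smallest adjusted p, with tight values within both groups. Trmt61b (-1.28 ± 0.18, edgeR adjusted p = 0.000214) and Mrm3 (-0.92 ± 0.16, edgeR adjusted p = 0.000752) modify mitochondrial ribosomal RNA. Mtg1 (-1.09 ± 0.16, edgeR adjusted p = 0.000258) is a GTPase of large subunit assembly.

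Of the translation factors, 4 of 18 tested were lower and none higher, beside 32.6% and 32.5% of all genes tested. The median was -0.06. The 4 were the elongation factors Tsfm and Tufm, the ribosome recycling factor Gfm2 and Gatc, a subunit of the enzyme that makes glutaminyl transfer RNA. Tsfm was at 70.5 ± 4.51 CPM in fl and 38.8 ± 3.36 in del (n = 3 each, edgeR adjusted p = 0.000391). Tufm, the factor that delivers transfer RNA to the ribosome, was at 52.3, 57.4 and 57.2 CPM in fl and 40.6, 31.7 and 34.3 in del (-0.64 ± 0.14, edgeR adjusted p = 0.00317). For Gfm1, the translocase, the del libraries disagreed: it was at 75.7, 98.2 and 94.0 CPM in fl and at 49.5, 43.1 and 92.7 in del (edgeR adjusted p = 0.117), and it was called lower without del replicate 3 (-0.94) and with a replicate block (-0.58). The calls of Gfm2 (-0.46) and Gatc (-0.42) lay near the threshold. Gfm2 lost its call without fl replicate 3, del replicate 2 or del replicate 3 (-0.42 to -0.38). Gatc lost its call without any 1 of the fl replicates or without del replicate 2 or 3 (-0.44 to -0.33). Neither was called with a replicate block.

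Mitochondrial aminoacyl-tRNA synthetases, which load transfer RNAs with amino acids, moved in both directions. Of 17 tested, 8 were lower and 4 higher, beside 32.6% and 32.5% of all genes tested. The median was -0.44. The 4 with the smallest adjusted p were Yars2 (-1.02 ± 0.14, edgeR adjusted p = 0.000192), Tars2 (-0.93 ± 0.13), Nars2 (-1.11 ± 0.19) and Ears2 (-0.80 ± 0.18), all lower. The 4 higher genes were Wars2, Lars2, Hars2 and Sars2, with log2 fold changes from 0.49 to 0.82. Sars2 and the member Mrps12, a decoding protein of the small subunit, start 172 bases apart on opposite strands, a pair picked after the values were seen. Mrps12 was at 72.7, 63.6 and 77.4 CPM in fl and 34.2, 43.1 and 27.6 in del, while Sars2 was at 6.19, 6.27 and 6.60 in fl and 7.90, 9.001 and 10 in del (0.50 ± 0.19, edgeR adjusted p = 0.0416). The neighbours thus lay on opposite sides of 0, but the call of Sars2 was lost without any 1 of fl replicates 1 to 3 (0.47, 0.49 and 0.53), del replicate 2 (0.49) or del replicate 3 (0.39), and with a replicate block (0.49). Leaving out 1 library also ended the call of Lars2 (fl replicate 2 or 3, del replicate 1; 0.42 to 0.45) and of Hars2 (del replicate 3; 0.51).

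For RNA synthesis and handling in mitochondria, 11 of 27 tested genes were lower, beside 32.6% of all genes tested, 1 was higher and the median was -0.36. Hsd17b10, a dehydrogenase that is also a subunit of mitochondrial RNase P, was at 108.8, 104.7 and 87.7 CPM in fl and 30.3, 28.4 and 32.7 in del (-1.72 ± 0.15, edgeR adjusted p = 1.26e-05). Tefm (-1.38 ± 0.14, edgeR adjusted p = 3.27e-05) is the elongation factor of mitochondrial transcription. Slirp (-1.36 ± 0.16, edgeR adjusted p = 7.82e-05) stabilises mitochondrial messenger RNAs, and Ssbp1 (-1.16 ± 0.15, edgeR adjusted p = 0.000154) binds single-stranded mitochondrial DNA. Tfam, the transcription factor that packages mitochondrial DNA, was at 106.2, 123.9 and 102.5 CPM in fl and 96.9, 138.8 and 79.8 in del (edgeR adjusted p = 0.727). The higher gene was Ptcd1 (0.73 ± 0.25, edgeR adjusted p = 0.0281), a pentatricopeptide repeat protein. Its call was lost without fl replicate 1 or 2 or del replicate 1 or 2 (0.56 to 0.68).

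Of 11 tested transcription regulators of nuclear genes for mitochondria, 4 were lower and 3 higher, shares near the 32.6% and 32.5% of all genes tested. Ppargc1b, a coactivator, was at 12.5, 10.5 and 8.504 CPM in fl and 37.7, 42.6 and 47.3 in del (2.01 ± 0.18, edgeR adjusted p = 1.52e-05). Nfe2l1, a transcription factor of proteasome and stress genes, also rose (1.45 ± 0.19, edgeR adjusted p = 0.000157). The GABP complex binds ETS sites. Its DNA-binding subunit Gabpa fell (-0.69 ± 0.13, edgeR adjusted p = 0.00116), and of its partner subunits Gabpb2 rose (1.71 ± 0.29, edgeR adjusted p = 0.000754) while Gabpb1 fell (-0.85 ± 0.21). Myc was at 454.4, 416.6 and 534.0 CPM in fl and 451.9, 421.6 and 395.5 in del (-0.15 ± 0.15, edgeR adjusted p = 0.399), with overlapping groups.

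**Figure D5:**
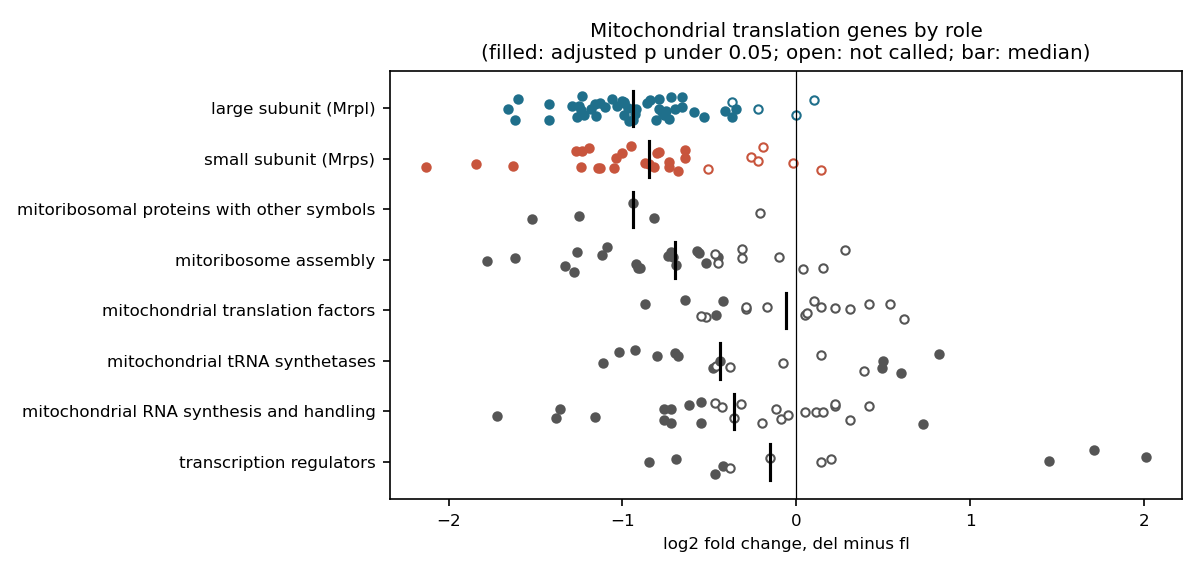
Log2 fold change (horizontal axis, del minus fl) of each tested gene of mitochondrial translation, in rows by role. Filled points passed edgeR's test, open points did not, and the vertical bar is the row's median. Ribosomal proteins have medians near -0.9, assembly genes -0.70 and translation factors -0.06.

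Promoters were read from RefSeq (GRCm38.p6) as windows from 250 bases before to 50 bases after each start, and 69 of the 78 members had one, with 75 windows in all. Both strands were searched for 4 motifs of factors known for nuclear genes of mitochondria or for Myc. These were the ETS site CCGGAAG, the NRF1 core CGCANGCG, the YY1 core AAGATGGC and the E-box CACGTG, which Myc binds. The ETS site and the YY1 core share the letters AAG at their ends and could overlap, but in the members' windows 0 matches of different motifs did. The ETS letters were in 34.7% of the members' windows, in 8.86% of all 32851 windows in 19.4% of the windows of tested genes and in 34.2% of the windows of cytosolic ribosomal protein genes. The NRF1 core was in 26.7% of the members' windows, against 8.21% of all, 18.03% of those of tested genes and 19.7% of those of cytosolic ribosomal proteins. The YY1 core was in 16.0%, against 2.75%, 4.89% and 10.53% in the same order. The E-box was in 9.33%, against 7.15%, 10.47% and 10.53%. Any of the 4 was in 64.0% of the members' windows, against 22.8% of all, 42.6% of those of tested genes and 63.2% of those of cytosolic ribosomal proteins. Members with the ETS letters (26 genes) had a median log2 fold change of -1.02, and those without (43 genes) -0.81. For the NRF1 core the order was the other way, at -0.88 in 20 members with it and -0.94 in 49 without. The same held for the YY1 core, at -0.90 in 12 and -0.94 in 57, and for the E-box, at -0.81 in 5 and -0.94 in 64. These differences were not tested, and a match is a description of letters and not a site in use.

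The windows of the lowest and highest member of each subunit are shown so that genes at both ends can be read beside their values, in lower case with any motif match in capitals. Mrps10 lies at chr17:47368947-47369246 on the plus strand and Mrps25 at chr6:92183974-92184273 on the minus strand. Mrpl21 lies at chr19:3282792-3283091 on the plus strand and Mrpl18 at chr17:12916042-12916341 on the minus strand. The 2 small subunit windows hold none of the 4 motifs, while the 2 large subunit windows, from the lowest and the highest gene, each hold 1 ETS match.
Mrps10: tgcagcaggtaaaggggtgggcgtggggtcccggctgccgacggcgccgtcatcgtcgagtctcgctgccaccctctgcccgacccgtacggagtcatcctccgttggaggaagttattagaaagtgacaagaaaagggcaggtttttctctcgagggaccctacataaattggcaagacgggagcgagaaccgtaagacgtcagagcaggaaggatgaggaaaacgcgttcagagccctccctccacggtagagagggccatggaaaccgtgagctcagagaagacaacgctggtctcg
Mrps25: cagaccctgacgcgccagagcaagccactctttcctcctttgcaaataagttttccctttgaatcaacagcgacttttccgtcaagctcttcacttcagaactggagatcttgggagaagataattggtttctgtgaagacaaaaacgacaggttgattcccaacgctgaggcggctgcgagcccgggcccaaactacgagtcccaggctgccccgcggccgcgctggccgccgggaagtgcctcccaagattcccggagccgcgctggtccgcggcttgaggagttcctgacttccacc
Mrpl21: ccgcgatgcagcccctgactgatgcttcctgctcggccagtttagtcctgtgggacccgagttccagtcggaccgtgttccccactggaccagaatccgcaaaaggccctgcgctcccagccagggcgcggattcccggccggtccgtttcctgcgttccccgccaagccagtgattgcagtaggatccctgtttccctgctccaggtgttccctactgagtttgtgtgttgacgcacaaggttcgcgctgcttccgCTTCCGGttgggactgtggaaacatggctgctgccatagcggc
Mrpl18: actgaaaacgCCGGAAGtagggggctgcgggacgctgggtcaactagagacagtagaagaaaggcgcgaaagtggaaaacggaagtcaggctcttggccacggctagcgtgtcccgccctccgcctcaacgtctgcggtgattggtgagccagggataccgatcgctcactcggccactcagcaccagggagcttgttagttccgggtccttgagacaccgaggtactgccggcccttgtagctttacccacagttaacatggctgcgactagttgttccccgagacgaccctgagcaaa

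Another pair of windows was chosen after the values were seen. Mrpl53 (chr6:83108858-83109157, plus strand), the large subunit gene next lowest to Mrpl21, holds 2 ETS matches, beginning 59 and 16 bases before its start. Mrps11 (chr7:78782881-78783180, plus strand) holds the YY1 core and shares 141 bases with the window of Mrpl46, which runs the other way. The start regions of a small and a large subunit gene thus share a stretch of DNA. Mrps11 was at 38.2, 38.2 and 36.6 CPM in fl and at 15.5, 14.7 and 20.8 in del (-1.13 ± 0.16). Mrpl46 was at 58.0, 54.5 and 54.5 CPM in fl and at 23.7, 35.1 and 30.0 in del (-0.93 ± 0.16). Both genes had groups that did not overlap. Annotated exons of Mrps11 and Mrpl46 also overlap each other on opposite strands, so their reads may not be separable.
Mrpl53: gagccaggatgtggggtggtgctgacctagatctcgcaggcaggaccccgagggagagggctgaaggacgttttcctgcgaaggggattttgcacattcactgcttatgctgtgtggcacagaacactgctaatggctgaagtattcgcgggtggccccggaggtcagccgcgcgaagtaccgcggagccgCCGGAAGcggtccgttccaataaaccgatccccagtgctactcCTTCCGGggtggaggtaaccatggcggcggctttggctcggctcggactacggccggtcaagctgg
Mrps11: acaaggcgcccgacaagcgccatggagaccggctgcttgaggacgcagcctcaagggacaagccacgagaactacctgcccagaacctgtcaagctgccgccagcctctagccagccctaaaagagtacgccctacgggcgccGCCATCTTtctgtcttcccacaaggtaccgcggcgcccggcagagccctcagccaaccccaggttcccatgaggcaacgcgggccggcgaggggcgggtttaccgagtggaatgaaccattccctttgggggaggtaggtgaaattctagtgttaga

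In the genome the members were scattered over 17 chromosomes, with at most 11 on one, chromosome 11. Within 1000 bases of their start, 18 had a divergent protein-coding neighbour, and 15 had a neighbour in that direction whose start region overlapped. Annotated exons of 31 members overlap those of another gene, in 28 of them on the opposite strand. No source used here gives the strand setting of the counting, so reads of these pairs may not be separable. Of the 47 members with no such overlap, 40 were lower and the median was -0.95. Their log2 fold changes ran from -2.13 to -0.02.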

How the data were processed

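Total RNA of 6 samples labelled lymphoma cells was sequenced as 3' RNA-seq primed with barcoded oligo-dT and made strand-specific, per the labels' protocols. The authors deposited raw read counts per gene. STAR, HTSeq and mm10 are named in the submitters' processing notes, with no version or setting in any source used here. Symbols came from RefSeq by gene number (23969 of 24052 numbers matched; unmatched numbers held 0.207% to 1.04% of counts). Members and gene lists were chosen with earlier results of these data known. All 6 libraries entered a robust quasi-likelihood fit in edgeR 4.0.16 (R 4.3.3, limma 3.58.1) with TMM scaling, filterByExpr and group as the only term. P-values were Benjamini-Hochberg adjusted over 10260 genes with a threshold of 0.05. CPM uses TMM library sizes. Named members are, per subunit, the 6 lowest and 4 highest fold changes and the 3 with the most fl counts, plus the Mrps18 paralogs, Mrps30 and Mrps36. Other lists name up to 4 genes by adjusted p plus Tufm, Gfm1, Dap3, Tfam, Myc and Mir17hg. Any other gene was named after its values were seen. Alternatives were DESeq2 1.42.0, other scalings and filters, thinning to 2121796 counts, a length and GC trend, a replicate block and leaving out each library. The fit was checked on simulated data in which far fewer genes changed than were called here. That check does not cover a table where most genes were called. Transcript lengths and exons came from the GENCODE vM21 annotation. Python 3.11.15, pandas 2.3.3, scipy 1.17.1 and matplotlib 3.10.9 made summaries and figures.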

Additional observations from a re-analysis of the deposited data

How the results depend on the processing

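Members lower in del numbered 59 to 70 under every other setting that gives calls, 59 of them in libraries thinned to equal depth, and none was higher. Genes called in either direction ranged from 4664 of 9295 tested (thinned) to 7286 of 14759 (no count filter), against 6676 of 10260 in the main fit. The members' median minus that of all genes was -0.92 under TMM, DESeq2 and upper-quartile scaling. Upper-quartile scaling moved the median of all genes to -0.131, the members to -1.05 and the large and small subunits to -1.07 and -0.98. Without a count filter the small subunit median was -0.90 and the members' -0.97. Thinning gave -0.82 for the small subunit and 28 lower and 5 higher among the other genes of mitochondrial translation; upper-quartile scaling also gave 5 higher. Removing the length and GC trend gave -0.52 for members, -0.51 for the large and -0.52 for the small subunit, which reversed the gap between subunits to -0.01. By place in the ribosome the small subunit median was -0.90 and the gap 0.03. An alternative chosen after seeing the data, members with no exon overlap, left 40 lower. The small subunit share gap without Mrpl18 and Mrps21 was 4.06 points. Leaving out 1 library gave medians of -0.98 to -0.85 (members), -1.03 to -0.87 (large) and -0.89 to -0.83 (small), and gaps of 0.02 to 0.16. Of 73 named genes, 13 lost and 5 gained a call in some setting; Mrpl20 lost its call in 6 settings and Sars2 in 10, while thinning alone ended those of Mrpl10 (-0.49), Mrm3 (-0.74), Mtg1 (-0.70) and Ears2 (-0.12). Same-numbered libraries did not deviate together (correlations 0.083, -0.039 and -0.02). With 3 libraries per group this cannot tell whether they share more than a number, and the labels do not say. With a replicate block 6510 genes were called and 67 members were lower. Depth limits the del libraries most, where the fewest counts of a member were 24.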
